A study of Mus musculus with 22 samples.

Results

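The genes of voltage-gated calcium and sodium channels were compared between the whole brains of 2 inbred strains of mice. These were C57BL/6J, called B6 here, and DBA/2J, called D2. They were taken by name: every gene of the array annotation whose symbol starts with Cacna, Cacnb or Cacng, or is Scn followed by a number and by a or b. That gave 37 of the 22251 annotated genes, 25 of calcium and 12 of sodium channels. The annotation lists 36 of them under a matching symbol and the other one, Scn2a, under its older symbol Scn2a1. The mice were naive adult males, 10 of B6 and 12 of D2, and total RNA of each brain was hybridised to 1 Affymetrix Mouse Exon 1.0 ST array, which measures a gene through probesets spread along its exons. The labels name no engineered allele and no treatment, and give no age beyond adult.

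A voltage-gated channel opens when the membrane depolarises and lets sodium or calcium into the cell. Sodium channels carry the rising phase of the action potential along axons. Calcium channels turn depolarisation into transmitter release, gene regulation and pacemaking. Each channel has a large pore-forming alpha subunit, which sets its type, and smaller auxiliary subunits that govern its transport to the membrane and its gating. Several members are mainly channels of other organs, such as Cacna1s and Scn4a of skeletal muscle, Cacna1f of the retina, and Scn10a and Scn11a of sensory neurons outside the brain.

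The deposited values are log2 values made with RMA. A probeset was kept where its mean over the 22 arrays was at least 1.44, which is the median of such means over the whole array, and 1006 of the 1195 probesets of the 37 genes were kept. A gene's value on an array was the median of its kept probesets. Of the 37 genes, 36 had at least 3 kept probesets and were tested, together with 16016 genes in all. Cacng7 had 2 and is described without a test. Medians over all probesets of an array lay between 1.41 and 1.51. They were 1.44 ± 0.018 for B6 (SD, n = 10) against 1.48 ± 0.018 for D2 (SD, n = 12). The array median therefore went with strain, and fits with it as a covariate cannot fully separate it from strain. D2 replicates 13, 14 and 19 correlated least with their own strain (mean r across kept probesets 0.930 to 0.933, against 0.939 to 0.953 in the other 19 arrays), and where a named gene or probeset refitted without them lost its call, that value is given. Since each array is of another mouse, p-values set the strain difference against the spread between mice of a strain, array noise included.

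Of the 36 channel genes tested, 3 differed between the strains (limma, Benjamini-Hochberg adjusted p under 0.05 over all 16016 genes). Cacna1s and Scn4a were higher in D2 and Cacnb1 was lower. That is 8.33% of the channel genes, against 10.8% of all genes tested. The median difference, D2 minus B6, was -0.007 on the log2 scale over the channel genes and -0.053 over all genes, and single channel genes ranged from -0.29 to 0.33. At an unadjusted p under 0.05 there were 8 of the 36 channel genes, against 4050 of all 16016 genes. In none of the 36 did the values of the 2 strains fail to overlap, against 1.18% of all genes. After subtracting from an array its median gene value, 3 channel genes were called higher (Cacna1a, Cacna1s and Scn4a) and 0 lower, while over all genes the split moved from 412 higher and 1323 lower to 1023 and 756. The difference and its interval are shown for each gene in the plot of differences by subunit.

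**Figure D1:**
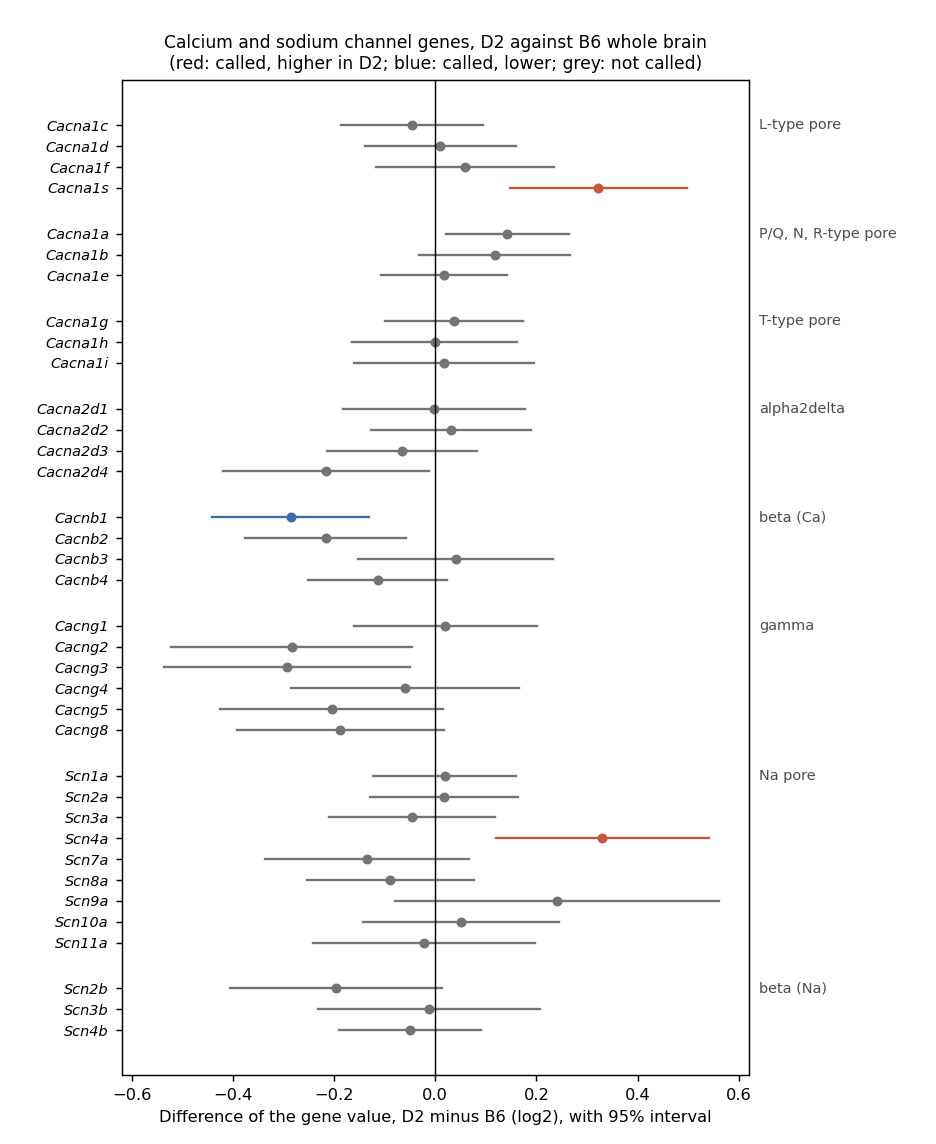
Difference of the gene value between D2 (n = 12 mice) and B6 (n = 10 mice) on the log2 scale, with 95% intervals from limma, for the 36 channel genes tested, ordered by subunit. Cacnb1 (-0.29) lies below 0, Cacna1s (0.32) and Scn4a (0.33) lie above it, and the other 33 were not called.

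No pore subunit of the calcium channels that brain neurons are known for passed the test. Cacna1a, the pore of P/Q-type channels, which trigger transmitter release at most central synapses, ranged from 6.80 to 7.12 in B6 (median 6.95, n = 10) and from 6.95 to 7.22 in D2 (median 7.15, n = 12). The D2 mice sat towards the upper end, 7 of them above every B6 mouse, and 40 of the gene's 47 kept probesets had a higher mean in D2. The difference of 0.14 ± 0.059 (SE) was not called (limma adjusted p = 0.127). With arrays centred on their gene median it was 0.24 and was called. Cacna1b, the N-type pore of presynaptic terminals, differed by 0.12 (95% interval -0.03 to 0.27) and 44 of its 60 kept probesets were higher in D2. On their own level 3 of the 60 were called higher and 0 lower, against 4.06% of all kept probesets with 1 gene called. Of all kept probesets with 1 gene, 58.4% had a lower mean in D2. Probesets of a gene share its transcripts and the arrays, so these counts are descriptions. Cacna1e, the R-type pore, differed by 0.02 (-0.11 to 0.14). Of the L-type pores, which couple activity to gene expression, Cacna1c differed by -0.05 (-0.19 to 0.09) and Cacna1d by 0.01 (-0.14 to 0.16). The T-type pores, which open at low voltage and underlie burst firing in the thalamus, were Cacna1g at 0.04 (-0.10 to 0.17), Cacna1h at -0.001 (-0.16 to 0.16) and Cacna1i at 0.02 (-0.16 to 0.20). In the fit as reported none of these 8 genes was called by limma, and Cacna1a alone had an unadjusted p under 0.05.

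Both genes that rose in D2 encode pores of skeletal muscle. Cacna1s, the voltage sensor of excitation-contraction coupling, ranged from 2.17 to 2.61 in B6 (median 2.46) and from 2.49 to 3.24 in D2 (median 2.71). Of the 12 D2 mice, 8 lay above every B6 mouse and none below the lowest. The difference was 0.32 ± 0.085 (SE), or 1.25-fold (limma adjusted p = 0.0136), against 2.57% of all genes called higher in D2. Scn4a, the sodium channel of the muscle fibre, ranged from 1.53 to 2.16 in B6 (median 2.01) and from 1.88 to 2.86 in D2 (median 2.32), with 7 D2 mice above every B6 mouse. Its difference was 0.33 ± 0.10 (SE), or 1.26-fold (limma adjusted p = 0.0377). Both levels are close to the filter level of 1.44, and 23 of the 49 probesets of Cacna1s and 17 of the 31 of Scn4a were kept. A D2 mean above the B6 mean was found in 18 of those 23 and in 13 of those 17. The filter used the mean over both strains, so a probeset could be kept through D2 alone. A Cacna1s probeset called on its own level had a mean of 1.01 in B6, below the filter level, and 1.79 in D2. These shares are therefore descriptions and no support for the differences. No call was made among 8 skeletal muscle markers (Acta1, Ckm, Mylpf, Tnnt3, Tnnc2, Myh1, Myh4 and Des). An unadjusted p under 0.05 was found in 2 of the 8, against 4050 of all 16016 genes. All 8 had kept probesets, with a median difference of 0.12 and a mean level over the list of 2.68 to 3.22 in B6 and 2.77 to 3.37 in D2. The array medians were also higher in D2, as given above. With the array median as a covariate the differences were 0.16 for Cacna1s (limma adjusted p = 0.558) and 0.13 for Scn4a (0.732). Without D2 replicates 13, 14 and 19 Scn4a was at 0.29 (limma adjusted p = 0.0771) and Cacna1s was called at 0.31. Scn4a was not called with no filter (0.14, limma adjusted p = 0.206), with the mean over probesets (0.24, 0.0517) or with a mean-variance trend. Cacna1s was not called with the filter at the 75th percentile (0.14, limma adjusted p = 0.517) or on the 18 arrays of file letter A alone. The part of low signal or of muscle transcripts in these differences was not tested.

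The 250 bases before the annotated start of the 3 called genes are shown because these genes carry the gene-level result. They are RefSeq sequences of the B6 reference (build GRCm38.p6), written 5′ to 3′ on the gene's strand, with E-boxes in capitals. An E-box is CANNTG, the core recognised by muscle-regulatory and other basic helix-loop-helix factors, and it reads as CANNTG on both strands. Matches were allowed to overlap. Cacnb1 has 2 annotated starts in the table, an inner and an outer one.
Cacna1s, chr1:136052561-136052810, + strand: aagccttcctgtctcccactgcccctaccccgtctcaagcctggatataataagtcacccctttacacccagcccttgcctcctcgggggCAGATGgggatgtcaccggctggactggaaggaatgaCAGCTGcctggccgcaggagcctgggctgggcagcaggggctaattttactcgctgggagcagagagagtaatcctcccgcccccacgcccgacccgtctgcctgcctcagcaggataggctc
Scn4a, chr11:106349391-106349640, - strand: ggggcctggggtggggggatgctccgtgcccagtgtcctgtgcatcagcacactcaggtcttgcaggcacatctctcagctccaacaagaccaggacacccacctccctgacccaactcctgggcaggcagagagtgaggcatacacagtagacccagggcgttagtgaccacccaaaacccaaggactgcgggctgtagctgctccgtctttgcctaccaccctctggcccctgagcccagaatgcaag
Cacnb1 inner start, chr11:98018373-98018622, - strand: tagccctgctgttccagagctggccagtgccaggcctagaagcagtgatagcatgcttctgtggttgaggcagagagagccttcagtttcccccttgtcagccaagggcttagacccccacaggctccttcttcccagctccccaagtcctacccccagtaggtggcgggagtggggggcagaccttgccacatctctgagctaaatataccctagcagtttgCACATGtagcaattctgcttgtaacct
Cacnb1 outer start, chr11:98022628-98022877, - strand: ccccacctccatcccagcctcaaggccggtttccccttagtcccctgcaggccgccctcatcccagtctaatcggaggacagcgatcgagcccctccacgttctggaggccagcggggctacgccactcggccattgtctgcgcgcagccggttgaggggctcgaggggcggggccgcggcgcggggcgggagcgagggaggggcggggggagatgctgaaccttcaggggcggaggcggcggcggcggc
The Cacna1s window held 2 E-boxes, the inner Cacnb1 window 1, and the Scn4a and outer Cacnb1 windows 0. Over all 32851 windows of the table, 66.2% held at least 1 and 31.8% at least 2. Of the 37 channel genes, 29 had at least 1 window, 40 windows in all, of which 25 held an E-box. A match describes the letters only. The array holds no measurement of these windows.

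Other members known mainly from outside the brain were also low on the array. Of the 37 genes, 8 had fewer than 75% of their probesets kept (25.0% to 65.9%, against 77.8% to 100% in the other 29). These were Cacna1f, Cacna1s, Cacna2d4, Scn4a, Scn7a, Scn9a, Scn10a and Scn11a, and their strain means lay between 1.97 and 3.04. Cacna1f differed by 0.06 (95% interval -0.12 to 0.23), Scn10a by 0.05 (-0.14 to 0.25) and Scn11a by -0.02 (-0.24 to 0.20). In whole brain RNA fewer cells of a type and less RNA per cell cannot be told apart.

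The alpha2delta subunits sit on the outer face of the membrane and raise the number of calcium channels at the surface. Cacna2d1 and Cacna2d2 encode the forms that bind gabapentin. The gene values of the 4 genes gave no call (limma), and Cacna2d4 alone had an unadjusted p under 0.05. Cacna2d1 differed by -0.003 (95% interval -0.18 to 0.18), Cacna2d2 by 0.03 (-0.13 to 0.19) and Cacna2d3 by -0.07 (-0.21 to 0.08). Cacna2d4, the low-level retinal form, ranged from 2.23 to 2.94 in B6 (median 2.64) and from 2.13 to 2.89 in D2 (median 2.36), with a difference of -0.22 (-0.42 to -0.01; limma adjusted p = 0.171). Single probesets of Cacna2d1 differed far more than the gene value and are described with exon usage.

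The beta subunits bind the pore inside the cell and are needed for its delivery to the membrane. Cacnb1 fell in D2. Its values ranged from 6.60 to 7.00 in B6 (median 6.83) and from 6.23 to 6.70 in D2 (median 6.54). The ranges met in a narrow band, and 7 of the 12 D2 mice lay below every B6 mouse. The difference was -0.29 ± 0.076 (SE), or 1.22-fold (limma adjusted p = 0.0143), against 8.26% of all genes called lower in D2. All 18 of its probesets were kept and 15 had a lower mean in D2, against 58.4% of all kept probesets with 1 gene. On their own level 3 of the 18 were called, all lower (-0.50, -0.44 and -0.36), against 4.06% of all kept probesets with 1 gene. These probesets make up the gene value, so the counts are descriptions. The difference depended on how probesets were combined, at -0.15 with their mean (limma adjusted p = 0.181) and -0.13 with the filter at the 75th percentile (0.427). It was -0.24 without D2 replicates 13, 14 and 19 (0.0605), and -0.24 and again not called with the array median as a covariate. Nor was Cacnb1 called with arrays centred on their gene median.

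The other beta genes were not called. Cacnb2 ranged from 5.78 to 6.25 in B6 (median 5.98) and from 5.48 to 6.01 in D2 (median 5.81). Of the 12 D2 mice, 5 lay below every B6 mouse, and the difference was -0.22 ± 0.077 (SE; limma adjusted p = 0.0717). Cacnb4, whose loss causes epilepsy and ataxia in the lethargic mouse, differed by -0.11 (95% interval -0.25 to 0.02), with 24 of its 25 probesets lower in D2, and was called with the mean over probesets (-0.17). Cacnb3 differed by 0.04 (-0.15 to 0.23), with 13 of 17 probesets lower. Over the 4 beta genes 84.3% of the 89 kept probesets had a lower mean in D2, against 58.4% of all kept probesets with 1 gene. Probesets of a gene share its transcripts and the arrays, so these shares are descriptions.

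The gamma genes include the AMPA receptor auxiliary proteins known as TARPs, which carry AMPA receptors to synapses. None of the 6 tested was called by limma, 2 had an unadjusted p under 0.05, and 5 had a difference below 0 (median -0.20). Over all 16016 genes 4050 had an unadjusted p under 0.05 and 9917 a difference below 0. Cacng2, or stargazin, whose mutation causes absence seizures in the stargazer mouse, ranged from 6.70 to 7.62 in B6 (median 7.25) and from 6.35 to 7.16 in D2 (median 7.00). Of the D2 mice 3 lay below every B6 mouse, and the difference was -0.28 ± 0.12 (SE; limma adjusted p = 0.118). Cacng3, its close relative in the forebrain, ranged from 6.16 to 7.08 in B6 (median 6.50) and from 5.87 to 6.71 in D2 (median 6.25), with a difference of -0.29 ± 0.12 (SE; limma adjusted p = 0.115). The strains overlapped over much of their range in both genes. All 9 kept probesets of Cacng2 and all 4 of Cacng3 had lower means in D2, against 58.4% of all kept probesets with 1 gene. Probesets of a gene share its transcripts and the arrays, so these counts are descriptions. Cacng8, the main hippocampal TARP, differed by -0.19 (95% interval -0.39 to 0.02), Cacng5 by -0.20 (-0.43 to 0.02) and Cacng4 by -0.06 (-0.28 to 0.17). Cacng1, the true gamma subunit of the muscle calcium channel, differed by 0.02 (-0.16 to 0.20) at a level of 2.33 ± 0.18 in B6 (SD, n = 10). Cacng7 was at 7.59 ± 0.22 for B6 (SD, n = 10) against 7.52 ± 0.20 for D2 (SD, n = 12) over its 2 probesets. Cacng2 was called with the file letter as a block (-0.30, limma adjusted p = 0.032) and with the mean over probesets (-0.26, 0.0213).

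No sodium channel pore of central neurons passed the test. Scn1a, the channel of inhibitory interneurons whose loss causes Dravet syndrome, was at 7.52 ± 0.13 for B6 (SD, n = 10) against 7.54 ± 0.13 for D2 (SD, n = 12), a difference of 0.02 with a 95% interval of -0.12 to 0.16. Scn2a, the channel of developing axons and excitatory neurons, was at 7.84 ± 0.16 and 7.86 ± 0.12, a difference of 0.02 (-0.13 to 0.16). Scn8a, the channel of mature axon initial segments and nodes, was at 7.37 ± 0.09 and 7.28 ± 0.21, a difference of -0.09 (-0.25 to 0.08). D2 mice lay at both ends in Scn8a, 5 below every B6 mouse and 2 above. Scn3a, the mainly embryonic form, differed by -0.05 (-0.21 to 0.12). None of these 4 was called by limma, and 0 had an unadjusted p under 0.05.

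Scn9a, a channel of peripheral sensory neurons, varied most between mice of the same strain. It ranged from 2.51 to 3.36 in B6 (median 2.68) and from 2.24 to 3.53 in D2 (median 3.16). D2 mice were found below and above all B6 mice. The difference was 0.24 ± 0.16 (SE; limma adjusted p = 0.348), and it was 0.75 with the array median as a covariate (limma adjusted p = 0.0229), the only channel gene called in that fit. Its neighbour Scn7a, a channel-like protein that senses sodium, differed by -0.13 (95% interval -0.34 to 0.07). On chromosome 2, Scn3a and Scn2a are neighbours in the reference order of protein-coding genes, as are Scn1a, Scn9a and Scn7a, and none of these 5 was called. The auxiliary sodium channel beta genes, which are also adhesion molecules, were Scn2b at -0.20 (-0.41 to 0.01), Scn3b at -0.01 (-0.23 to 0.21) and Scn4b at -0.05 (-0.19 to 0.09). All 10 kept probesets of Scn2b had lower means in D2, against 58.4% of all kept probesets with 1 gene, which is a description only. No sodium channel beta gene was called by limma, and 0 had an unadjusted p under 0.05.

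**Figure D2:**
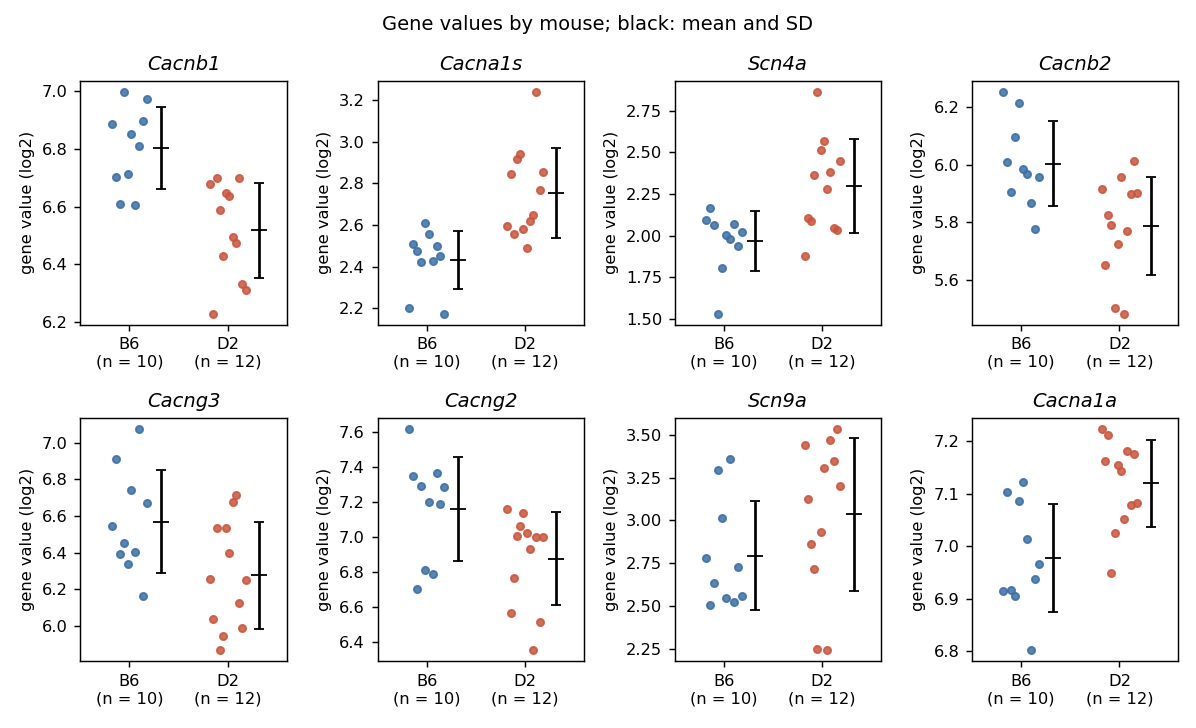
Gene values (log2) of single mice, with the mean and SD in black, for 8 channel genes in B6 (n = 10) and D2 (n = 12). Cacnb1 is lower in most D2 mice and Cacna1s and Scn4a are higher, with ranges that overlap, and Scn9a spreads from 2.24 to 3.53 within D2.

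The channel genes varied little between mice. The pooled SD within strains had a median of 0.19 over the 36 genes, against 0.25 over all genes. It was smallest in Cacna1a (0.092) and largest in Scn9a (0.39). The channel genes had a median of 24 kept probesets, and all genes 12.

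Exon usage was compared on the splicing index, which subtracts the gene value of an array from the level of each probeset there. Calls needed an index difference of 0.5 or more together with a limma adjusted p below 0.05. Of the 1004 probesets of the channel genes 14 were called, 1.39% against 1.66% of all 236114 tested. The index was lower in D2 in 11 and higher in 3, against 1819 lower and 2110 higher over all tested. With the mean over probesets as the gene value the split of the channel genes turned to 6 lower and 9 higher. The 14 fell in 7 of the 36 genes (19.4%, against 13.9% of all genes). These shares per gene are not alike, since channel genes had a median of 24 kept probesets and all genes 12. On their own level 29 of the 1006 kept probesets were called, 11 higher and 18 lower, 2.88% against 3.91% of all kept probesets and 4.06% of those with 1 gene. With arrays centred on their median the own-level calls were 8 higher and 23 lower, and with the array median as a covariate 7 higher and 4 lower. Over all kept probesets with 1 gene 3071 were called higher and 6731 lower.

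Cacna2d1 held 5 of the 14 calls, all lower in D2, while its gene value did not differ. Of all genes tested 0.768% had 5 or more, at a median of 12 kept probesets, where Cacna2d1 had 47. The level of probeset 4657434 ranged from 6.95 to 7.62 in B6 (median 7.34) and from 4.72 to 6.22 in D2 (median 5.63), so that every D2 mouse lay below every B6 mouse. Its index was 0.39 ± 0.17 for B6 (SD, n = 10) against -1.31 ± 0.45 for D2 (SD, n = 12), a difference of -1.69 ± 0.15 (SE; limma adjusted p = 4.5e-08). It was the only one of the 1004 probesets whose index did not overlap between the strains, against 0.328% of all probesets tested. Probeset 5564113 had the largest index difference, -1.81 ± 0.22 (SE; limma adjusted p = 7.8e-06), from a level of 2.90 to 4.64 in B6 (median 3.86) and 1.27 to 3.09 in D2 (median 1.96). Several D2 values of this probeset lie near the filter level. Probeset 4334954 ranged from 7.36 to 7.60 in B6 (median 7.45) and from 6.25 to 7.16 in D2 (median 6.69), again without overlap, with an index difference of -0.70 ± 0.10 (SE; limma adjusted p = 0.000187). Own levels failed to overlap in these 2 probesets of the 1006, against 0.77% of all kept probesets. Probeset 4489845 (-0.95) and probeset 5002087 (-0.53) complete the 5, with 6 and 10 D2 mice below every B6 mouse on the index. Probeset 4489845 lost its call without D2 replicates 13, 14 and 19 (-0.87, limma adjusted p = 0.0552) and with the array median as a covariate (-0.57, 0.430). One further probeset of the gene, 4377244, rose on its own level by 0.41 (limma adjusted p = 0.00781). The plot of probeset means shows all kept probesets of the gene.

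**Figure D3:**
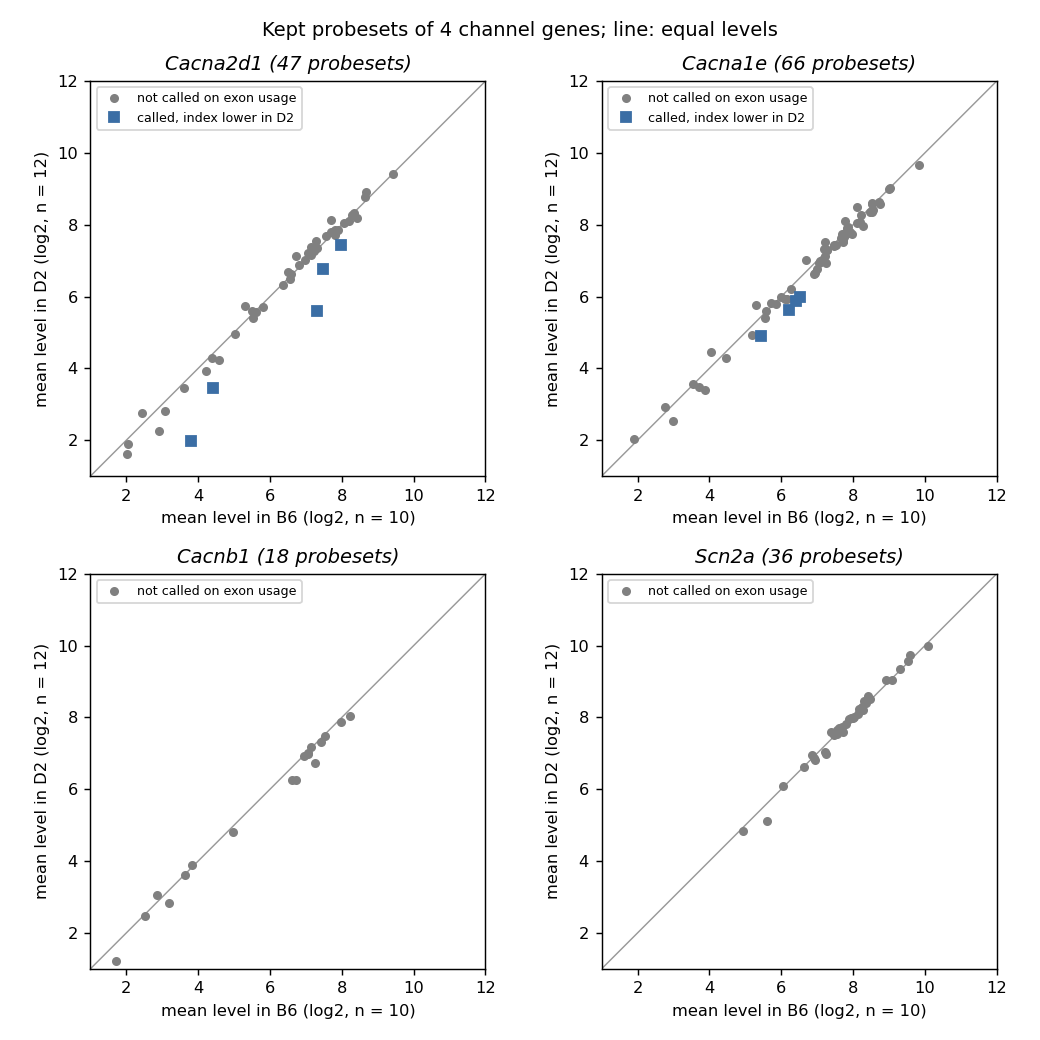
Mean log2 level of each kept probeset in B6 (n = 10, horizontal) and D2 (n = 12, vertical) for Cacna2d1, Cacna1e, Cacnb1 and Scn2a, with the line of equal levels. In Cacna2d1 the 5 probesets called on exon usage lie below the line, and in Cacna1e 4 do. Probeset 4377244 of Cacna2d1, which rose on its own level, lies above it.

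In Cacna1e 45 of the 66 kept probesets had a lower mean in D2, against 58.4% of all kept probesets with 1 gene. The gene held 4 calls, all lower in D2 and all of similar size. Of all genes 1.11% had 4 or more, at a median of 12 kept probesets. The index differences were -0.62 ± 0.16 (SE) for probeset 4765335, -0.57 ± 0.15 for 5266677, -0.56 ± 0.13 for 4915074 and -0.55 ± 0.12 for 4617481 (limma adjusted p from 0.00828 to 0.0437). The level of 4915074 ranged from 5.20 to 5.71 in B6 (median 5.40) and from 4.29 to 5.57 in D2 (median 4.84), and 11 of the 12 D2 mice lay below every B6 mouse on the index. In the other 3 probesets 5 to 8 did. Probeset 4552007 of the same gene rose on its own level by 0.39 (limma adjusted p = 0.0181), so the gene held probesets that moved in both directions. Probeset 5266677 lost its call in 7 of 8 alternatives, at -0.47 without D2 replicates 13, 14 and 19 (limma adjusted p = 0.163) and -0.08 with the array median as a covariate (0.901). Probeset 4765335 lost it in 6 of 8, at -0.57 without those arrays (0.0922) and -0.65 with the covariate (0.238). With the covariate 4915074 was not called at -0.67 (0.0906), and 4617481 was called at -0.99. The gene held 2 exon usage calls without D2 replicates 13, 14 and 19 and 1 call with the mean over probesets, while Cacna2d1 held 3 without those arrays.

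**Figure D4:**
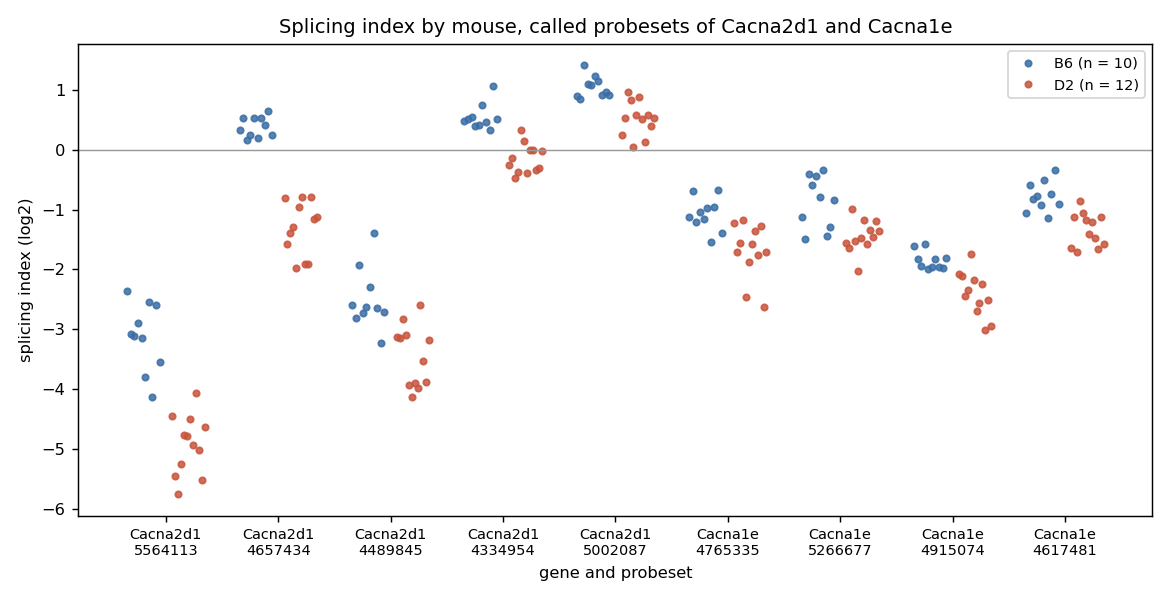
Splicing index (log2) of single mice for the 5 called probesets of Cacna2d1 and the 4 of Cacna1e, B6 (n = 10) in blue and D2 (n = 12) in red. The strains separate completely in probeset 4657434 and overlap in the others.

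The remaining calls were single probesets of 5 genes. In Cacna1a probeset 5137312 fell on the index by 0.57 (limma adjusted p = 0.00597), with 11 of 12 D2 mice below every B6 mouse, while 40 of the gene's 47 probesets had a higher mean in D2. Its own level, at -0.43, was not called (limma adjusted p = 0.0652), and the index call was lost with the covariate (-0.50, 0.196). In Cacna2d2 probeset 4673866 fell by 0.66 from a level of 3.65 ± 0.29 for B6 (SD, n = 10) to 3.03 ± 0.38 for D2 (SD, n = 12). Its call was lost without D2 replicates 13, 14 and 19 (-0.63, limma adjusted p = 0.0586) and with the array median as a covariate (-0.31, 0.569). In Scn9a probeset 4307173 was higher in D2 on the index by 0.85 and on its own level by 1.09, at 2.10 ± 0.40 for B6 (SD, n = 10) against 3.19 ± 0.49 for D2 (SD, n = 12). With the array median as a covariate its index difference was 0.51 (limma adjusted p = 0.434). In Cacnb2 probeset 4563652 was higher by 0.60 on the index while its own level, 0.39 higher, was not called, and the index call was lost with the covariate (0.53, limma adjusted p = 0.175). Cacna1c had 1 call, probeset 5469524 at 0.53, which is outside the naming rule and is named after its values were seen. No sodium channel gene other than Scn9a held an exon usage call, including Scn1a, Scn2a and Scn8a, whose alternative exons are well known. Where these probesets lie within the transcripts was not analysed here. Probes of the array follow the reference sequence, which comes from B6. A D2 variant under a probe can therefore lower the signal in D2. The part of such variants was not tested.

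Among 64 listed genes of proteins that bind, anchor, modify or act with these channels, 59 were measured. None rose and 4 fell in D2, against 2.57% of all genes called higher and 8.26% called lower. At an unadjusted p under 0.05 there were 11, against 4050 of all 16016 genes, and the median difference was -0.08. Scnm1, a splicing factor found as a modifier of an Scn8a mutation, for which B6 carries a nonsense allele, ranged from 5.77 to 6.48 in B6 (median 6.10) and from 5.01 to 5.94 in D2 (median 5.53). Of the 12 D2 mice, 9 lay below every B6 mouse, and the difference was -0.60 ± 0.11 (SE), or 1.52-fold (limma adjusted p = 0.000532). Tpcn2, an ion channel of endolysosomal membranes, ranged from 4.10 to 4.73 in B6 (median 4.34) and from 3.42 to 4.09 in D2 (median 3.73). The strains did not overlap, as in 1.18% of all genes tested, and the difference was -0.62 ± 0.093 (SE, limma adjusted p = 3.3e-05). Akap5, which anchors kinases and a phosphatase at L-type channels, fell by 0.41 (limma adjusted p = 0.00119), and the sodium-calcium exchanger Slc8a2 fell by 0.29 (limma adjusted p = 0.0368), or by 0.22 without D2 replicates 13, 14 and 19 (0.141). The Slc8a2 call was also lost with probesets called on exon usage left out (-0.14, limma adjusted p = 0.412) and with arrays centred on their gene median (-0.19, 0.114). With the array median as a covariate Scnm1 was at -0.20 (limma adjusted p = 0.474) and Akap5 at -0.42 (0.0523) and Slc8a2 at -0.10 (0.778), while Tpcn2 was called at -0.78. Tpcn2 was also called with the filter at the 75th percentile (-0.27) and with the mean over probesets (-0.41).

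Markers of brain cells were present in both strains. Of 9 measured pan-neuronal markers, Map2 fell (-0.38) and 8 were not called, and the mean level of the list was 8.27 to 8.58 in B6 and 8.05 to 8.48 in D2. Counts of called markers stand against 2.57% of all genes called higher and 8.26% called lower. Of 8 astrocyte markers Gja1 rose (0.28) and 3 fell (Gfap at -0.80, Aldh1l1 at -0.40 and Aldoc at -0.25), of 7 oligodendrocyte markers 2 fell (Mobp at -0.78 and Mal at -0.51), and of 6 Purkinje cell markers Car8 fell (-0.52). Of 5 choroid plexus markers 3 fell (Foxj1 at -0.65 and Folr1 at -0.61) and of 3 measured red cell markers 2 fell (Hbb-b1 at -4.12 and Alas2 at -0.90). Of 8 microglia markers C1qb fell (-0.90), of 4 endothelial markers 2 fell (Slco1a4 at -0.41 and Pecam1 at -0.33), and of 4 cardiac muscle markers Tnnt2 fell (-0.59). No marker was called among 4 of oligodendrocyte precursors, 5 of sensory neurons or 3 of the pituitary, where 0 had an unadjusted p under 0.05. The mean level of the pituitary list spread from 2.10 to 5.23 in B6 and from 2.10 to 7.63 in D2. Gja1, Aldoc and the probesets 4377244 and 4552007 are outside the naming rule and are named after their values were seen. Whether cell makeup has a part in the difference of Cacnb1 was not tested.

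**Figure D5:**
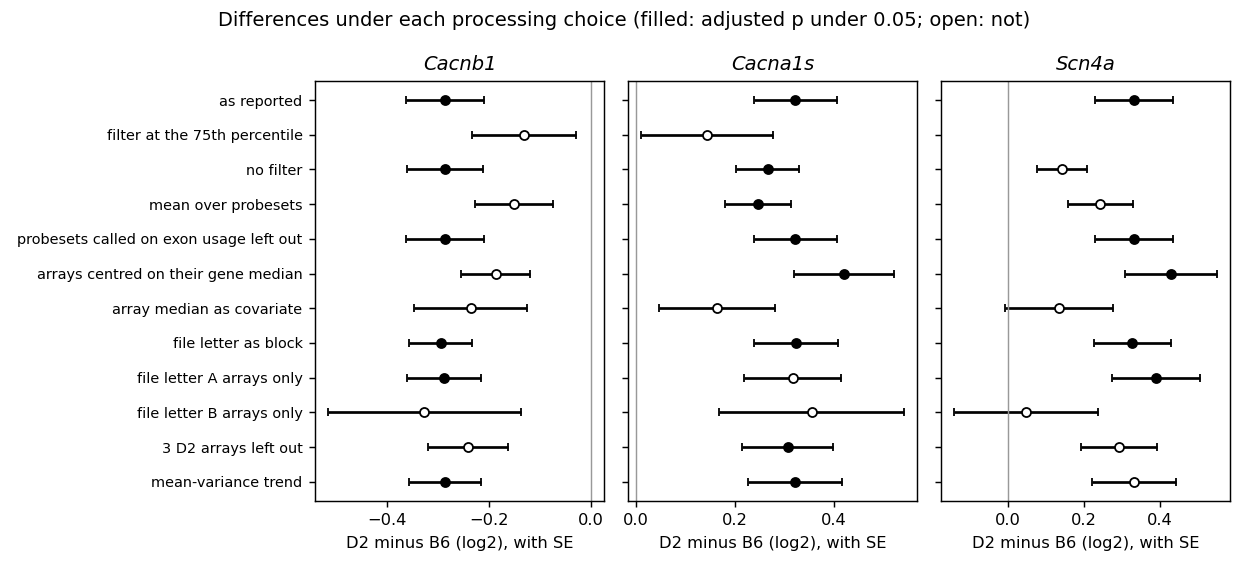
Differences of the 3 called genes, D2 minus B6 (log2) with SE, as reported and under each alternative that could be fitted. Filled points passed an adjusted p of 0.05. Cacnb1 stayed below 0 and Cacna1s and Scn4a above 0 in every fit shown, with some points open for each gene.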

How the data were processed

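Total RNA of whole brain from 22 mice (10 B6, 12 D2) was measured on exon arrays, 1 mouse per array. Per the labels, 24 arrays were hybridised and 2 read on another scanner are not analysed here. The authors deposited log2 values made with RMA (per the submitters' processing notes, which name R 2.6.0 and affy 1.12.2); RMA's options, the probeset definition and the genome build are not given in the sources used here. RMA subtracts background and equalises the arrays, which can compress low values. Of 1201338 rows, 10932 were empty and left out. GEO's platform annotation gave 1 symbol for 309786 of the rest, several for 6308 and none for 874312. Genes were formed only from probesets with 1 symbol, grouped by that symbol. Tests used limma 3.58.1 in R 4.3.3 (lmFit and eBayes, D2 minus B6), adjusted over 16016 genes, 595203 kept probesets or 236114 index values, and called at an adjusted p under 0.05. The tests were checked on simulated data with independent noise in each row. Those data held no shift of whole arrays with strain, so the check does not cover such a shift. Arrays have no read depth, and their number limits the precision.

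Members, gene lists and tests were chosen with earlier results of these data known. Named in full were called members, members whose strains did not overlap, the 4 uncalled members with the largest difference, the 12 called probesets with the largest index difference, genes with 3 or more such calls, up to 6 called partner genes and Scnm1, and up to 2 called genes per marker list. Alternatives changed the filter, the gene summary, the scaling, the arrays used, the variance model and the call rule. The letter in an array's file name (A on 18 arrays, B on 4, 2 of each strain) was used as a block. Promoter windows are from RefSeq (GRCm38.p6). Figures were drawn with matplotlib 3.10.9.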

Additional observations from a re-analysis of the deposited data

How the results depend on the processing

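The number of channel genes called was 3 as reported, 0 with the filter at the 75th percentile (31 genes tested, 5 at an unadjusted p under 0.05, limma), 1 with the array median as covariate, 0 on the 4 letter B arrays alone (1 unadjusted) and 1 without D2 replicates 13, 14 and 19 (Cacna1s). Centring arrays on their gene median gave 3, all higher in D2 (Cacna1a, Cacna1s and Scn4a). Partner genes gave 4 calls as reported, 1 with the covariate and 0 on the letter B arrays (1 unadjusted). Own-level calls were 29 as reported (18 lower), 31 with arrays centred on their median (23 lower), 11 with the covariate (4 lower), 18 without the 3 D2 arrays and 45 with a mean-variance trend. Exon usage calls were 14 as reported, 9 with the covariate and 2 at an index difference of at least 1, and 15 with the mean over probesets, of which 9 were higher. The 11 genes and 12 probesets refitted singly kept their direction in each alternative that could be fitted, and the named marker genes and the other named probesets were not refitted singly. Over the alternatives, Cacnb1 ranged from -0.33 to -0.13 and was called in 5 of 11, Cacna1s from 0.14 to 0.42 (7 of 11) and Scn4a from 0.05 to 0.43 (4 of 10). With the filter at the 75th percentile Scn4a had too few probesets to be fitted. Cacna2d1 probeset 4657434 ranged from -1.69 to -1.47 and was called in all 8. The causes of these changes were not tested. No paired analysis was possible because the strains share no replicate numbers. Low signal limits Cacna1s, Scn4a and the other members near the filter level of 1.44.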
